A study of Schizosaccharomyces pombe with 8 samples.

Results

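The genes of 3 copper transporter proteins, ctr4 (SPCC1393.10), ctr5 (SPAC1142.05) and ctr6 (SPBC23G7.16), and of the copper-dependent enzyme superoxide dismutase, sod1 (SPAC821.10c), were examined in wild-type fission yeast (Schizosaccharomyces pombe). They were chosen by identifier, with their H3K14ac, H4ac and H3 densities, ratios and replicate differences already known, as 4 of the 5129 protein-coding gene rows of a chromatin immunoprecipitation sequencing (ChIP-seq) table. In ChIP-seq, cross-linked chromatin is fragmented, recovered with an antibody and sequenced. The antibodies recognized histone H3 acetylated on lysine 14 (H3K14ac), histone H4 acetylated on lysines 5, 8, 12 or 16 (H4ac) and histone H3 in any state (H3), with 2 biological replicates of each. The labels also list 2 libraries of Input, chromatin before precipitation, which were not analysed here.

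By the methods and the labels, every library came from exponentially growing cells of 1 strain, YAM2394, grown in rich medium. The methods give it as h+ ade6-M210 ura4-D18 leu1-32, a laboratory strain needing adenine, uracil and leucine. A figure legend of the study instead names another strain for these data, whose genotype is given only as h-. No copper level, mutant or treatment was compared, and each value averages over all cells of a culture. The ura4 row, which ura4-D18 should remove, held 0 tags in each of the 6 libraries, which allows a density of at most 0.00264 tags per nt in any of them (3 tags, counting error only). The authors scaled each library by 1 factor, so tag densities (tags per nt) can be set side by side. The median nuclear gene had 1.24, 1.23 and 1.24 tags per nt for H3K14ac, H4ac and H3. A ratio of 0 on the log2 scale therefore marks an equal share of tags, not an absolute amount of acetylation.

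Copper is a cofactor of respiration and of antioxidant defence and is toxic in excess, so its uptake is closely regulated. In fission yeast, Ctr4 and Ctr5 form a high-affinity copper transporter at the plasma membrane, and Ctr6 releases copper stored in the vacuole. The factor Cuf1 activates their genes when copper is scarce, through a promoter sequence called the copper-signalling element (CuSE). Sod1 is the Cu,Zn superoxide dismutase, which converts superoxide in the cytosol and receives its copper from the chaperone Ccs1. Acetylation of H3 and H4 tails is commonly found at promoters and starts of transcribed genes, and a total H3 signal measures how much histone is present.

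In the coordinates of the table (build ASM294v2), ctr4 lies on the plus strand of chromosome III at 818302 to 819361, a row of 1060 nt. The ctr5 row, of 1280 nt, lies on the plus strand of chromosome I at 3635293 to 3636572. The ctr6 row, of 1236 nt, is on the plus strand of chromosome II at 2100018 to 2101253 and holds 5 coding exons, whereas the other 3 genes have 1 coding exon each. The sod1 row, of 763 nt, is on the minus strand of chromosome I at 1002838 to 1003600. In the RefSeq annotation (ASM294v3), each 50-mer of the 4 gene spans occurred once in the genome, so uniquely mapped reads can reach all of these spans. The spans of ctr4, ctr5 and ctr6 begin at 818459, 3635409 and 2100115, inside their rows. The parts of these 3 rows before those positions were not checked.

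The CuSE was searched on both strands in the 800 nt before each start codon (RefSeq sequence, build ASM294v3), because it is the sequence that links 3 of these genes to copper. At least 1 match was present in 56.0% of 5112 promoters, and a match is only a description of letters. ctr4 had 3 matches, a number reached by 4.99% of promoters, and ctr5 had 4, reached by 1.04%. ctr6 had 1 match and sod1 had none in this window. The 30-nt windows are written 5′ to 3′ along the gene, with the matched letters in capitals, followed by the distance of the first matched base from the start codon.
ctr4, III:817728-817757, plus strand, 721 nt before the start codon: gtcactgtttGTGATGCTGGattccgactg
ctr4, III:817846-817875, plus strand, 603 nt before: tcgaggtattATTGCGCTGTaaaagagctg
ctr4, III:817857-817886, plus strand, 592 nt before: ttgcgctgtaAAAGAGCTGAttttagggac
ctr5, I:3635282-3635311, plus strand, 473 nt before: tttggcgggaATTTTGCTGAgcgattatag
ctr5, I:3635296-3635325, plus strand, 459 nt before: tgctgagcgaTTATAGCTGGtagtttttac
ctr5, I:3635412-3635441, plus strand with the match on the minus strand, 343 nt before: atttgagcgtTCAGCTTAATtgaacattca
ctr5, I:3635530-3635559, plus strand with the match on the minus strand, 225 nt before: cgaaaaaggcCCAGCTCATAgagagatatt
ctr6, II:2100053-2100082, plus strand, 210 nt before: attagtgtacGTGGTGCTGGagtggatcgg
The ctr4 matches lay upstream of its row, which begins 157 nt before the start codon. The ctr5 and ctr6 matches lay in or at the edge of rows that were measured, since these rows begin 472 and 255 nt before the start codon.

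ctr4, a subunit of the plasma membrane transporter, carried less of either acetylation mark than of H3, which was itself below the median gene. It had 0.486 and 0.504 tags per nt of H3K14ac (replicates 1 and 2), 0.727 and 0.697 of H4ac, and 1.06 and 0.853 of H3. Both marks lay below H3 in every library. The H3K14ac density of 0.495 ± 0.013 (SD, n = 2) stood at percentile 1.13 of 5118 nuclear genes, that of H4ac, 0.712 ± 0.021, at percentile 7.15 and that of H3, 0.958 ± 0.149, at percentile 14.7. ctr4 thus ranked lower for H3K14ac than for H4ac, and lower for H4ac than for H3. Relative to H3, H3K14ac was at -0.93 (SE 0.08) on the log2 scale, a 0.525-fold level, and H4ac at -0.42 (SE 0.08). H3K14ac/H4ac was -0.52 (SE 0.08), at percentile 1.25.

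The low level of both marks at ctr4 extended over its coding sequence. The coding exon of 870 nt gave a log2 H3K14ac/H3 of -1.11 and a log2 H4ac/H3 of -0.53. An antisense noncoding transcription unit, novelncTU_446, overlaps 771 nt of the gene and gave -1.14 and -0.48. Since ChIP-seq does not distinguish strands, these rows share most of their tags. The nearest gene, ten1, a subunit of the telomere cap complex 487 nt beyond the end of ctr4, showed ratios to H3 of 1.76 (H3K14ac) and 2.16 (H4ac) on the log2 scale, and gir2, 1706 nt upstream, had 0.15 and -0.034.

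ctr5, the partner subunit of Ctr4, differed from it in carrying both marks above H3. It had 1.29 and 1.04 tags per nt of H3K14ac in replicates 1 and 2, 1.34 and 0.988 of H4ac, and 0.871 and 0.841 of H3. The 2 replicates of each mark differed by more than the 2 replicates of H3, yet all 4 acetylation values lay above both H3 values. Means were 1.17 ± 0.17 for H3K14ac, 1.17 ± 0.25 for H4ac and 0.856 ± 0.022 for H3 (SD, n = 2), at percentiles 43.9, 43.4 and 9.62. Log2 H3K14ac/H3 and H4ac/H3 were both 0.43, each with an SE of 0.12, and log2 H3K14ac/H4ac was 0.0079.

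Within ctr5, acetylation exceeded H3 in the upstream portion of the row but not over the coding exon. The part of the row beyond the coding exon was not measured separately. The antisense transcript XUT0674, an Xrn1-sensitive unstable transcript (XUT, a noncoding RNA degraded by the cytoplasmic exonuclease Exo2), reaches from 554 nt before the start codon to 32 nt after it and contains all 4 CuSE matches. Its row had 1.74 and 1.34 tags per nt of H3K14ac, 1.42 and 0.971 of H4ac and 0.587 and 0.583 of H3. H3K14ac/H3 was thus 1.37 and H4ac/H3 was 0.99 on the log2 scale. The overlapping noncoding RNA SPNCRNA.923 had 1.27 and 0.90. Over the coding exon, in contrast, H3K14ac was 1.10 and 0.925, H4ac was 1.41 and 0.998, and H3 was 1.24 and 1.17 tags per nt. The coding exon thus had 2.06 times the H3 of the XUT0674 row, with a log2 H3K14ac/H3 of -0.25 and a log2 H4ac/H3 of -0.022. The positive ratios of the ctr5 row did not hold for its coding sequence.

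ctr6, the vacuolar transporter, had the highest H3K14ac and H4ac densities of the 4 gene rows, although sod1 had the higher H4ac/H3. It had 1.45 and 1.37 tags per nt of H3K14ac, 1.54 and 1.31 of H4ac, and 0.849 and 0.854 of H3. Each acetylation value exceeded each H3 value by more than the replicates differed. Means were 1.41 ± 0.05 for H3K14ac, 1.42 ± 0.17 for H4ac and 0.851 ± 0.004 for H3 (SD, n = 2), at percentiles 61.7, 63.6 and 9.44. Relative to H3, H3K14ac was at 0.72 (SE 0.06) and H4ac at 0.73 (SE 0.06) on the log2 scale, corresponding to 1.65-fold and 1.66-fold. The marks did not part, with a log2 H3K14ac/H4ac of -0.0092 (SE 0.06).

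The 5 coding exons of ctr6 showed acetylation toward the start of the gene. From the first exon to the last, log2 H3K14ac/H3 was 2.03, 1.57, 0.29, 0.044 and 0.083, and log2 H4ac/H3 was 1.78, 1.11, 0.17, 0.22 and 0.60. Exons 1 and 2 stood above the other 3 for both marks. These exons are 45, 26, 261, 22 and 93 nt long, and rows as short as these can include tags of their flanks, so the exon values may not be independent of the introns between them. Over the exons together, densities were 2.32 tags per nt for H3K14ac, 2.23 for H4ac and 1.49 for H3, each over 1.5 times that of the gene row, and H3 then lay above the median gene row. H3 was highest in the 2 shortest exons, at 2.47 (26 nt) and 3.59 (22 nt), against 1.13 to 1.48 in the others. The part that row length had in these densities was not tested, so exon and gene rows are not directly comparable. The gene upstream, mti3 (a mitochondrial translation initiation factor), had a log2 ratio to H3 of 0.85 (H3K14ac) and 0.76 (H4ac). The adjoining nif1, a protein kinase inhibitor on the minus strand whose 3′ end meets that of ctr6, had -0.94 and -0.84.

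**Figure D1:**
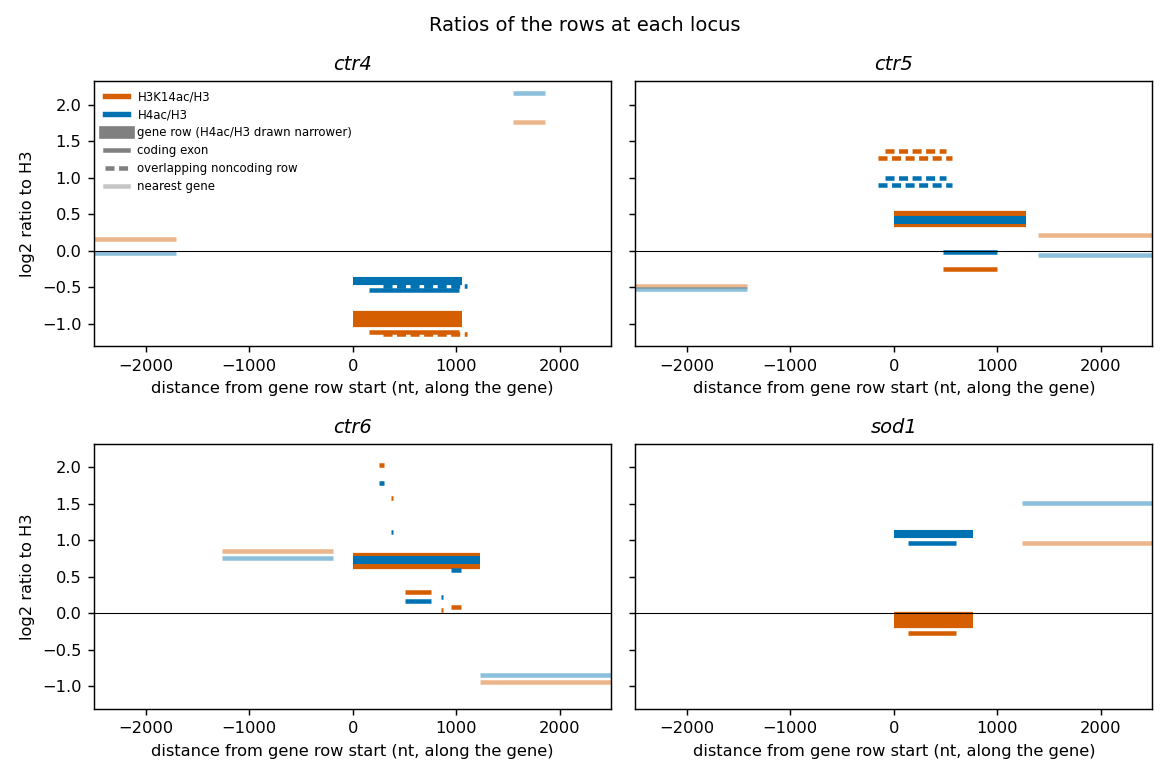
Log2 ratio of H3K14ac (orange) and H4ac (blue) to H3 (y axis) for the rows at each locus, against distance in nt from the start of the gene row (x axis). Thick bars are gene rows, thin bars coding exons, dashed bars overlapping noncoding rows and pale bars the nearest genes. In ctr5 the noncoding rows lie at 0.90 to 1.37 and the coding exon at -0.25 and -0.022.

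sod1 had the lowest H3K14ac/H4ac of the 4 genes, with ctr4 next. It had 0.607 and 0.438 tags per nt of H3K14ac, 1.25 and 1.10 of H4ac, and 0.660 and 0.456 of H3. H4ac lay above both H3 values, whereas the H3K14ac values and the H3 values overlapped. Means were 0.522 ± 0.120 for H3K14ac, 1.18 ± 0.10 for H4ac and 0.558 ± 0.144 for H3 (SD, n = 2). H3K14ac and H3 both stood at percentile 1.62 of nuclear genes, while H4ac stood at percentile 45.2.

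At sod1, log2 H3K14ac/H3 was -0.088 (SE 0.17), and log2 H4ac/H3 was 1.08 (SE 0.17), a 2.12-fold level. H3K14ac/H4ac was -1.17 (SE 0.17), or 0.444-fold, and ranged from -1.49 to -0.85 over all pairings of 1 H3K14ac with 1 H4ac library. Among 5118 nuclear genes only the Hsp70 chaperone gene ssa2, at -1.30, had a lower H3K14ac/H4ac, and the gene of an uncharacterized protein, SPAPB18E9.05c, came next at -1.07. In the coding exon alone, H3K14ac/H3 was -0.27, H4ac/H3 was 0.97 and H3K14ac/H4ac was -1.24. At the neighbouring eng1, an endoglucanase gene 476 nt beyond the end of sod1, these ratios were 0.96, 1.51 and -0.55. At pro1, of proline synthesis, 2658 nt upstream, they were -0.29, -0.33 and 0.039.

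**Figure D2:**
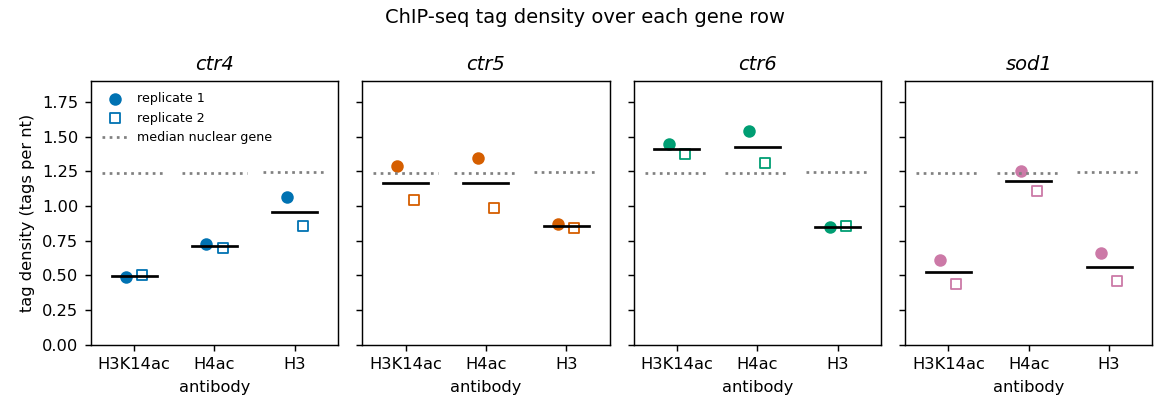
Tag density in tags per nt (y axis) of H3K14ac, H4ac and H3 (x axis) over the row of each gene. Filled circles are replicate 1, open squares replicate 2, black bars their mean and dotted lines the median nuclear gene. In sod1 H4ac lies at 1.10 and 1.25 while H3K14ac and H3 lie between 0.438 and 0.660.

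Across the 4 genes, H3K14ac was highest in ctr6, then ctr5, then sod1 and ctr4, whose replicates overlapped. H4ac was highest in ctr6 and lowest in ctr4, with sod1 and ctr5 overlapping between them. H3 did not order ctr4, ctr5 and ctr6 beyond their replicates, and sod1 had the lowest H3. All 4 gene rows lay below the median nuclear gene for H3, at percentiles 1.62 to 14.7. The order of the genes therefore depended on the mark, and H3 varied less among the 3 transporter genes than either mark did.

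Several replicate differences of these genes were among the largest of all nuclear genes. The replicate difference in log2 density (replicate 1 minus replicate 2) had an SD over nuclear genes of 0.05 for H3K14ac, 0.05 for H4ac and 0.06 for H3. An absolute difference beyond the 99th percentile, reached by 1.02% of nuclear genes for each antibody, was seen in 2 of the 4 genes for H3K14ac, 3 for H4ac and 2 for H3. The genes were chosen with these values known, so nothing is read from these counts. sod1 differed by 0.46 for H3K14ac, the largest absolute difference of all 5118 nuclear genes, by 0.18 for H4ac (rank 38) and by 0.52 for H3 (rank 3). ctr5 differed by 0.30 for H3K14ac (rank 3) and 0.44 for H4ac (rank 3), but by 0.051 for H3 (rank 1371). The replicate difference at ctr5 was thus one of the marks, and at sod1 one of every antibody.

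The other transporter genes each stood out for a single antibody. ctr4 differed by 0.31 for H3 (rank 10), by -0.053 for H3K14ac and by 0.061 for H4ac, and ctr6 differed by 0.24 for H4ac (rank 13), by 0.07 for H3K14ac and by -0.0097 for H3. Counting error alone gives an SD of 0.099 for H3 at sod1, which rested on 546 and 348 tags, and of 0.051 for H4ac at ctr5, which rested on 1902 and 1343 tags. Differences beyond the 99th percentile were 2.69 to 8.56 times this SD, whereas H3K14ac and H4ac at ctr4, H3 at ctr5 and H3 at ctr6 differed by 0.158 to 0.853 times it, within counting error, and H3K14ac at ctr6 by 1.53 times it. All 3 antibodies were higher in replicate 1 at ctr5 and sod1, as at 13.6% of nuclear genes. The rows that overlap ctr5 share tags with it, so their differences are not independent of its own. XUT0674 differed by 0.37 for H3K14ac, 0.54 for H4ac and 0.011 for H3. The genes next to ctr5, ctr6 and sod1 differed by at most 0.092 for any antibody, whereas ten1, next to ctr4, differed by 0.17 for H3K14ac and 0.27 for H3. The labels do not name a batch, so the part that culture conditions or sample handling had in these differences was not tested.

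**Figure D3:**
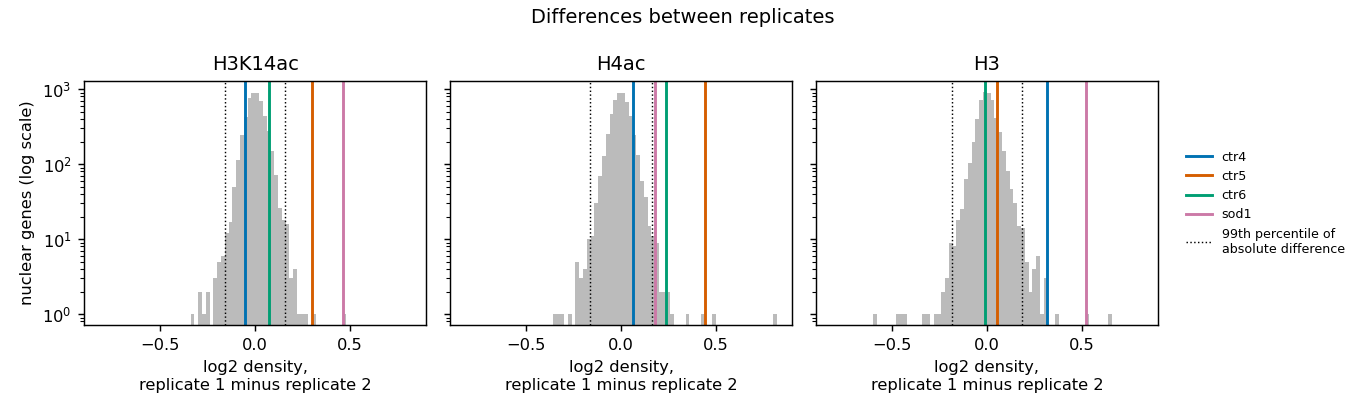
Number of nuclear genes (y axis, log scale) by the log2 density of replicate 1 minus that of replicate 2 (x axis) for H3K14ac, H4ac and H3. Coloured lines mark the 4 genes and dotted lines the 99th percentile of the absolute difference. sod1 lies at 0.46 for H3K14ac and 0.52 for H3, and ctr5 at 0.44 for H4ac.

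Set against all nuclear genes, the ratios of the 4 genes covered much of the range. For H3K14ac/H3 they stood at percentiles 8.34 (ctr4), 45.1 (sod1), 69.2 (ctr5) and 80.1 (ctr6), with a median of 0.17 against 0.011 over all nuclear genes. This median turned to -0.018 without H3K14ac replicate 1 and to -0.26 over coding exons. For H4ac/H3 they stood at percentiles 26.8 (ctr4), 71.1 (ctr5), 81.8 (ctr6) and 90.4 (sod1), with a median of 0.58 against 0.0057. For H3K14ac/H4ac their median was -0.26 against -0.011, with ctr4 and sod1 at percentiles 1.25 and 0.020 and ctr5 and ctr6 at 53.9 and 50.5. The 3 transporter genes therefore did not share a ratio, and of them only ctr4 was low in both marks.

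By limma with Benjamini-Hochberg adjustment over 5128 genes, 93.3% of genes were called for H3K14ac against H3, 47.4% as higher and 45.9% as lower. Among the 4 genes, ctr5 and ctr6 were called higher and ctr4 lower, while sod1 was not called. For H4ac against H3, 92.6% of genes were called, 47.1% as higher and 45.5% as lower, and of the 4 genes ctr5, ctr6 and sod1 were higher and ctr4 was lower. For H3K14ac against H4ac, 69.5% of genes were called, 32.9% as higher and 36.6% as lower, with ctr4 and sod1 called lower and ctr5 and ctr6 not called. The genes were not chosen independently of these values, so nothing is read from the calls. Leaving out a library leaves a single one for that antibody, so only the log2 ratio is given for such runs. At ctr5, H3K14ac/H3 fell to 0.28 without H3K14ac replicate 1, and H4ac/H3 fell to 0.21 without H4ac replicate 1. Both stayed positive. At sod1, H3K14ac/H3 was -0.35 without H3 replicate 2 and turned to 0.17 without H3 replicate 1.

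**Figure D4:**
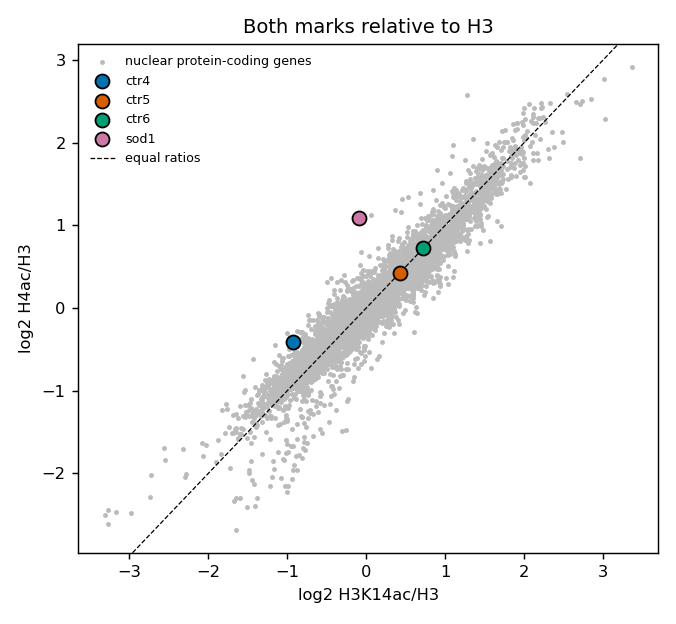
Log2 H4ac/H3 (y axis) against log2 H3K14ac/H3 (x axis) for nuclear protein-coding genes (grey) and the 4 genes (coloured), with a dashed line where both ratios are equal. ctr5 and ctr6 lie on the line, and ctr4 and sod1 lie above it, sod1 at 1.08 against -0.088.

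The 4 rows are shorter than most gene rows, at length percentiles of 8.08 (sod1) to 24.4 (ctr5), and short rows had higher ratios to H3. Nuclear genes within 20% of the length of ctr4 had medians of 0.59 (H3K14ac/H3) and 0.52 (H4ac/H3). ctr4, at -0.93 and -0.42, lay below both their lower quartiles, 0.19 and 0.072. The medians for genes of the length of sod1 were 0.96 and 0.87. Beside them, sod1 was low in H3K14ac/H3, at -0.088 against a lower quartile of 0.46, and within the quartiles of 0.35 and 1.31 in H4ac/H3. ctr5 lay within the quartiles of genes of its length for both ratios, as did ctr6.

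Likeness was measured as the Euclidean distance over the 6 log2 densities, and the 3 nearest nuclear genes are given for each. ctr4 was nearest to knh3, met6 (homoserine O-acetyltransferase) and gpd1 (glycerol-3-phosphate dehydrogenase), at distances of 0.30 to 0.31. ctr5 was nearest to rpl8 and rps1001, which encode ribosomal proteins, and tma19, the translationally controlled tumor protein, at 0.30 to 0.36. ctr6 was nearest to hub1 (a ubiquitin-like modifier), SPAC9.02c (a polyamine N-acetyltransferase) and nse1 (a subunit of the Smc5-6 complex), at 0.19 to 0.21. sod1 had no gene as near, with SPAPB18E9.05c at 0.55, the chaperone gene hsp90 at 0.91 and the membrane proteolipid gene pmp3 at 0.99. The distance takes each library singly, so it also contains the replicate differences, which were large at sod1. In mean density SPAPB18E9.05c was close to sod1, with 0.529 against 0.522 for H3K14ac, 1.13 against 1.18 for H4ac and 0.508 against 0.558 for H3. Of the 4 genes themselves, ctr5 and ctr6 were the closest pair at 0.62, and ctr4 and ctr6 the farthest at 2.55.

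Other genes of copper and of copper-dependent iron handling were taken from a list of 17 symbols, of which 16 matched. Because cox11 matched the paired copies cox1101 and cox1102, whose 50-mers are unique in only 2.27% of positions and whose values are therefore uncertain, the list held 17 rows. Their H3 densities were nonetheless ordinary, 1.36 and 1.39 tags per nt, although unique mapping is stated. Both copies enter each count of this list, as lower for both ratios to H3 and as higher for H3K14ac/H4ac. Of these, 9 were called higher and 8 lower for H3K14ac/H3, near the shares over all genes (47.4% and 45.9%), with a median log2 ratio of 0.13 against 0.011 over nuclear genes. For H4ac/H3, 7 were called higher, 9 lower and 1 was not called, beside 47.1% and 45.5% of all genes, with a median of -0.15 against 0.0057.

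The extremes of the copper list were the same genes for both ratios to H3. ccc2, the copper-transporting ATPase of the secretory pathway, was lowest, with H3K14ac/H3 at -1.70 and H4ac/H3 at -1.51. cox17, which carries copper to cytochrome c oxidase, was highest at 1.5 for both. ccs1, the chaperone that loads Sod1, had 0.49 and 0.56, and the regulator gene cuf1 had -0.27 and -0.15. For H3K14ac/H4ac, 10 were called higher and 2 lower, beside 32.9% and 36.6% of all genes, with a median of 0.18 against -0.011, the lowest at -0.18 (ccc2) and the highest at 0.76 (mfc1, the meiotic copper transporter of the forespore membrane). Each gene of this list lay above ctr4 and sod1 in H3K14ac/H4ac, as did nearly all nuclear genes, among which ctr4 and sod1 stood at percentiles 1.25 and 0.020. A replicate difference beyond the 99th percentile was seen only for cox17 in H3, at 0.24, which is 1 of the 17 rows for H3 and none for either mark.

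The 10 antioxidant genes also included calls in both directions, as all genes did. For H3K14ac/H3, 5 were called higher and 5 lower (47.4% and 45.9% of all genes), with a median of 0.23, from tpx1 (a peroxiredoxin) at -1.18 to grx1 (a glutaredoxin) at 0.85. For H4ac/H3, 6 were called higher and 4 lower (47.1% and 45.5% of all genes), with a median of 0.44, from tpx1 at -1.06 to pmp20 (a peroxiredoxin-family protein) at 0.94. sod2, the mitochondrial manganese superoxide dismutase, had -0.30 and -0.37, so its H4ac/H3 lay 1.45 below that of sod1 on the log2 scale. For H3K14ac/H4ac, 3 were called higher and 4 lower (32.9% and 36.6% of all genes), from pap1 (the transcription factor of the oxidative stress response) at -0.45 to trx2 (a mitochondrial thioredoxin) at 0.26. Replicate differences beyond the 99th percentile were seen for tpx1 in H4ac (0.20) and trx1 in H3 (-0.19).

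**Figure D5:**
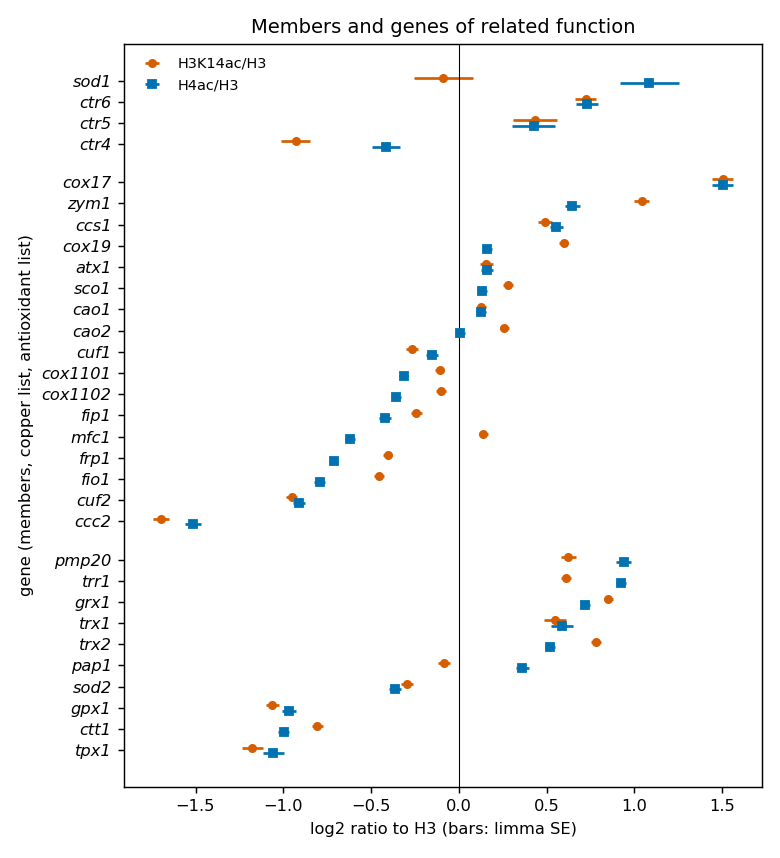
Log2 ratio of H3K14ac (circles) and H4ac (squares) to H3 (x axis) for the 4 genes, the copper list and the antioxidant list (y axis), with limma standard errors. sod1, at -0.088 and 1.08, has the widest gap between its ratios, whereas both ratios of ccc2 (-1.70 and -1.51) and of cox17 (1.5) lie close together.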

How the data were processed

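ChIP-seq libraries were made by the authors from formaldehyde-fixed cells and sequenced as single-end 50-nt reads. Per the submitters' processing notes, reads were mapped with Bowtie2 to ASM294v2, and the study's methods state unique mapping. The deposited signal gives 19343 annotated rows a density of tags per nt, not divided by Input or H3. How tags were assigned to rows is not given in the sources used here. In all 6 libraries, 100% of densities multiplied by length were whole multiples of 1 value (tolerance 0.01), so the authors scaled each library by 1 factor. The tags so recovered summed over gene rows to 14014219 to 15214393 per library, with 2325 to 2608 in the median gene. The 3 pooled columns equal the sum of replicates and were not used.

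Ratios were taken from limma 3.58.1 (R 4.3.3) on log2(density + 0.01), with 1 mean per antibody and a shared spread, over the 5128 genes that reached a density of 0.05 in 2 or more libraries. This scale understates changes of genes with low density. Genes were called at a Benjamini-Hochberg adjusted p under 0.05. The fit was tested on simulated data. Coding exon and noncoding rows were given as log2 ratios of densities, without a test. Sequences and symbols came from RefSeq (ASM294v3), in which 5111 of 5129 identifiers matched. The tables were read in Python 3.11.15 with pandas 2.3.3.

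The members and gene lists were chosen with earlier results of these data known. The genes named are the 4 members with their coding exons, overlapping rows and nearest genes, the 3 genes most like each, and, from each list, the highest and lowest of each ratio with ccs1, cuf1 and sod2, as well as genes with a replicate difference beyond the 99th percentile. The text also names cox1101 and cox1102, ssa2 and ura4, which were chosen after their values were seen.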

Additional observations from a re-analysis of the deposited data

How the results depend on the processing

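Of 33 results, 16 kept their value within the replicate spread under every alternative run. For a single gene, this spread comes from the gene's own replicate difference. Leaving out 1 library cannot move a ratio or density of that gene beyond it. Such runs therefore do not test how stable a gene is. At sod1, H3K14ac/H3 ran from -0.35 to 0.17 in them and still counted as kept. Restricting each gene to its coding exons changed most. In ctr5, H3K14ac/H3 reversed to -0.25, whereas H4ac/H3 fell to -0.022, a value well within its replicate spread of 0.31. The median over the 4 genes of H3K14ac/H3 became -0.26 (reversed), and that of H4ac/H3 became 0.28. The median H3K14ac/H4ac became -0.41 and the median H3 density 1.12 tags per nt. The densities of ctr6 became 2.32 (H3K14ac), 2.23 (H4ac) and 1.49 (H3) tags per nt, against 1.41, 1.42 and 0.851 over its row. The cause was not tested. Leaving out 1 library at a time, the median H3K14ac/H3 ranged from -0.018 (reversed, without H3K14ac replicate 1) to 0.36, and the median H3K14ac/H4ac from -0.38 to -0.19. Requiring a change of at least 1.5-fold left 2320 genes called for H3K14ac against H3, 2129 for H4ac against H3 and 126 for H3K14ac against H4ac, out of 4785, 4749 and 3563. With the replicate number as a block these were 4784, 4754 and 3570. The labels do not state whether same-numbered libraries are paired. Their replicate differences correlated across genes by 0.12 (H3K14ac with H4ac), 0.015 (H3K14ac with H3) and -0.0089 (H4ac with H3). Counting error also enters these differences, so weak correlations cannot decide whether the libraries are paired. With 2 replicates of each antibody, the SE of a ratio was 0.17 at sod1 and 0.12 at ctr5, against a median of 0.03 over genes.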
